A study of Gallus gallus with 7 samples.

Results

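Among the ovaries of 7 laying hens, 135 genes stood far above all other birds in a single hen. They were chosen by their own read counts: the highest value had to reach at least 1 CPM (a gene's count scaled to a common library total) and at least 4 times the second highest, after each value was raised to no less than that of 3 counts in its library. Of 24356 Ensembl genes, 16516 reached 1 CPM in some hen, and the 135 genes are 0.817% of these. Because the same counts chose the genes, the gap between the highest hen and the others is a description and carries no test. Each hen gave 1 library, so a value high in a single hen has no replicate, and hen, tissue piece, RNA extraction and library preparation cannot be told apart.

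The libraries came from persistent layers (PL, n = 3: hens 8, 9 and 20, laying rate 100%) and non-persistent layers (NPL, n = 4: hens 10, 12, 13 and 42, laying rate no higher than 82%). All were Single-comb White Leghorn hens (Shaver), caged singly under a cycle of 16L:8D with free access to feed and water, and taken from the top and bottom quartile of a flock of 40 whose eggs were counted to an age of 76 weeks. RNA was taken from about 10 mg of ovarian body after follicles over 1 mm were cut away. Hens are named by the sample number in their labels.

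The ovary of a laying hen holds a hierarchy of follicles at different stages, set in a stroma with vessels, nerves, smooth muscle and immune cells. Granulosa and theca cells around each oocyte make sex steroids, and spent or regressing follicles are resorbed within the same tissue. A small piece of ovarian body is therefore a mixture of cell types, and in such bulk RNA, fewer cells of a type and less RNA per cell cannot be told apart. The count table and the reference table used here do not pair the Ensembl IDs with symbols, so the genes are given by ID, without names, roles or positions, and neither the ovarian label nor the cell types could be checked against marker genes.

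Total counts lay between 21535850 (hen 42) and 27803563 (hen 10), and hen 20 had 22312114, the second lowest. A single count was worth 0.0360 to 0.0464 CPM. Hen 20 had counts in 20149 genes, within the 19863 to 20228 of the other birds.

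The genes were spread unevenly over the hens. PL hen 20 held 109 of the 135 (80.7%) and PL hen 9 held 16 (11.9%). PL hen 8 held 1, and among the NPL hens, hen 12 held 4, hens 10 and 42 held 2 each, and hen 13 held 1. This made 126 genes high in a PL hen (93.3%) and 9 high in an NPL hen. Over all 16516 genes that reached 1 CPM, a PL hen had the highest value in 8666 (52.5%). Most of the genes on the PL side came from hen 20. With that library left out and the rule applied to the other 6, 38 genes met it. Of these, 5 were in hen 8, 16 in hen 9, 3 in hen 10, 7 in hen 12, 5 in hen 13 and 2 in hen 42. PL hen 9 thus still held the most, and the share of all genes highest in hens 8 and 9 among these 6 birds was not worked out.

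**Figure D1:**
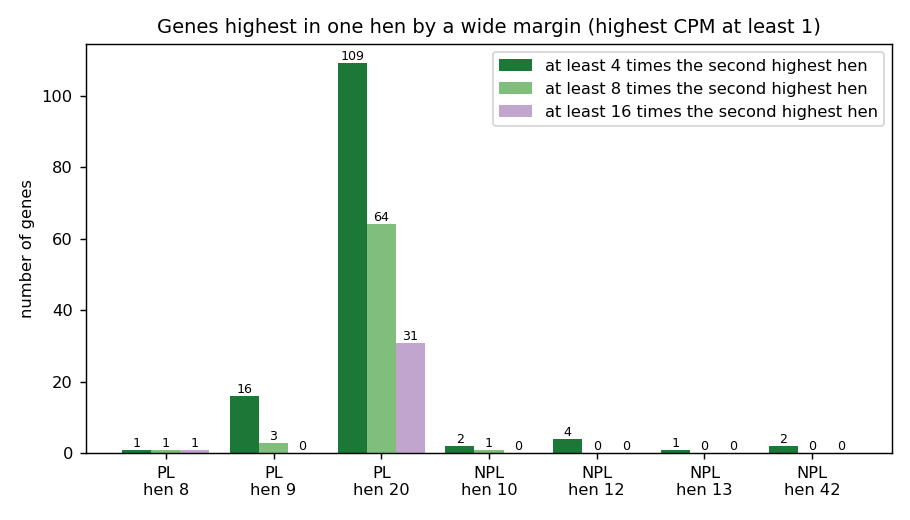
Number of genes (vertical axis) whose CPM in the hen named below the bars was at least 4, 8 or 16 times that of the second highest hen, for genes with a highest CPM of at least 1. Hen 20 has 109, 64 and 31 such genes, and no other hen has more than 16, 3 or 1.

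The size of the gap set hen 20 apart more than the number of genes at which a hen ranked first. Hen 9 had the highest CPM of all hens in 4520 of the 16516 genes, but a gap of at least 4-fold in only 0.354% of these. Hen 20 was highest in 2285 genes, with such a gap in 4.77%. At a gap of at least 2-fold the numbers were 18, 33 and 224 genes in PL hens 8, 9 and 20, and 11, 62, 52 and 13 in NPL hens 10, 12, 13 and 42. At 8-fold they were 1, 3 and 64 in the PL hens and 1, 0, 0 and 0 in the NPL hens. At 32-fold and 64-fold, hen 20 had 15 and 5 genes and the other 6 hens had 0. Hens 12 and 13 thus had more genes than hen 9 at 2-fold but fewer at 4-fold.

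The opposite rule gave far fewer genes. A gene counted as lowered in 1 ovary when its second lowest value was at least 1 CPM and its lowest, raised to 3 counts, was at least 4 times below that. This held for 28 of 14744 genes (0.19%). Hen 20 had 3 of them, hen 9 had 10, hen 42 had 6, hen 12 had 3, and hens 8, 10 and 13 had 2 each. The downward rule covers only genes at 1 CPM or more in at least 6 hens, whereas a raised gene needs that level in 1, so the numbers of raised and lowered genes are not on an equal footing.

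**Figure D2:**
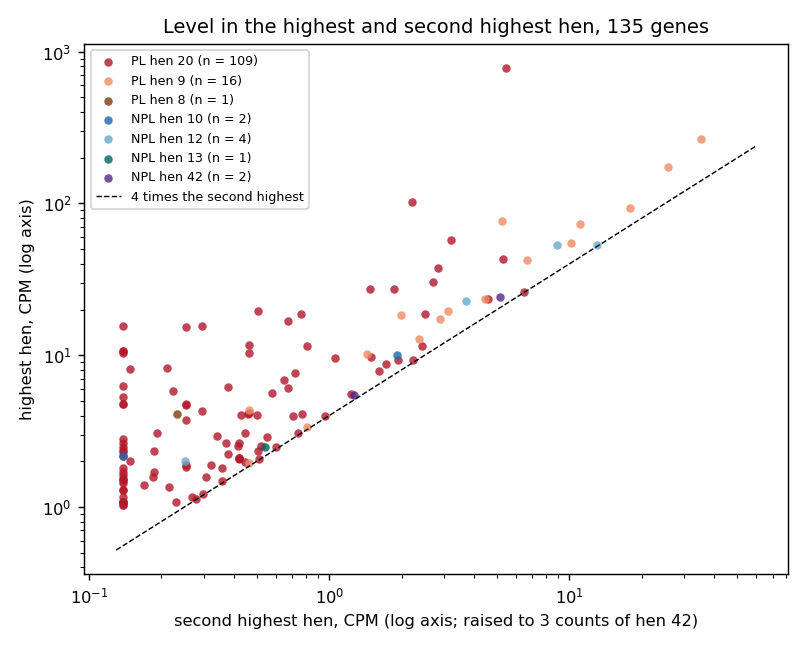
CPM in the highest hen (vertical, log axis) against CPM in the second highest hen (horizontal, log axis) for each of the 135 genes, coloured by the highest hen; values under 3 counts of the shallowest library are drawn at that limit. The column of points at the left edge are genes with almost no counts outside the highest hen, nearly all of them high in hen 20, and the point at the top is ENSGALG00000016667 at 780.0 CPM.

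The gene with the widest gap was also the most abundant of the 135. ENSGALG00000016667 had 780.0 CPM in hen 20 (17404 counts), against 5.46 and 0.345 CPM in PL hens 8 and 9 and 0.0719, 0.256, 1.27 and 0.232 CPM in NPL hens 10, 12, 13 and 42. Hen 20 lay 143 times above hen 8, with a 95% exact binomial interval of 120.2 to 171 that covers counting error only. It was the 71st most abundant gene of hen 20, and 2 to 129 counts were found in each of the other birds. It weighed heavily on the summed level of the 109 genes, which was 1635 CPM in hen 20 with it and 855 CPM without it. In the other 6 hens the sum without it was 34.8 to 57.4 CPM.

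The next genes of hen 20 were all but silent in the other ovaries. ENSGALG00000021552 had 15.6 CPM in hen 20 (347 counts), 1 count in PL hen 9 and 0 counts in the other 5 birds; its ratio to hen 9 was 405 with an interval of 72.3 to 16057. ENSGALG00000004945 had 10.6 CPM in hen 20 (236 counts), 1 count in PL hen 8 and 0 counts elsewhere, a ratio of 250.0 with an interval of 44.4 to 9914. These genes show a clear signal in 1 library and single reads at most in any other.

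ENSGALG00000030322 had 10.6 CPM in hen 20 (237 counts), against 1 and 0 counts in PL hens 8 and 9 and 1, 2, 3 and 0 counts in NPL hens 10, 12, 13 and 42. ENSGALG00000006635 had 10.4 CPM in hen 20 (231 counts), against 1 count each in PL hens 8 and 9 and 3, 2, 0 and 1 counts in NPL hens 10, 12, 13 and 42. Their ratios to the next hen were 95.1 (interval 32.1 to 464) and 96.0 (interval 32.4 to 469). With the limit of 3 counts applied, the ratios of ENSGALG00000021552, ENSGALG00000030322, ENSGALG00000004945 and ENSGALG00000006635 were 112, 76.3, 75.9 and 74.3.

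The 109 genes of hen 20 fell into 3 kinds by what the other ovaries held, a division made after the values were seen. In 30 genes no other hen had more than 3 counts. These lay between 1.03 and 15.6 CPM in hen 20 (23 to 347 counts, median 1.75 CPM), and 5 of them had 0 counts in all 6 other birds. Against the limit of 3 counts in a library, hen 20 was 7.40-fold to 10.9-fold higher in those 5, which had 23 to 34 counts. The lower ends of the 95% exact binomial intervals of their ratios to hen 8 were 6.09 to 9.24. They are ENSGALG00000030516 (34 counts), ENSGALG00000001167 and ENSGALG00000047255 (29 counts each), ENSGALG00000003765 (24 counts) and ENSGALG00000044780 (23 counts).

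In 14 genes the median of the other 6 hens was at least 1 CPM, so they were present in most ovaries and higher in hen 20. ENSGALG00000030886 had 43.0 CPM in hen 20, against 4.49 and 3.57 CPM in PL hens 8 and 9 and 4.42, 3.59, 5.29 and 4.18 CPM in NPL hens 10, 12, 13 and 42. ENSGALG00000000608 had 27.2 CPM in hen 20, against 1.86 and 1.65 CPM in PL hens 8 and 9 and 1.73, 1.54, 1.71 and 1.76 CPM in NPL hens 10, 12, 13 and 42. In the second gene the other 6 birds differed by at most 1.21-fold while hen 20 lay 14.6 times above the next, with an interval of 10.8 to 20.3. This was the smallest spread among the other birds in the 14 genes. The median spread was 2.97-fold and the largest 14.6-fold, with the limit of 3 counts applied.

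ENSGALG00000051882, the second most abundant gene of the 109, had 102 CPM in hen 20 (2269 counts), against 1.82 and 0.230 CPM in PL hens 8 and 9 and 1.15, 2.22, 1.53 and 1.07 CPM in NPL hens 10, 12, 13 and 42. ENSGALG00000032282 had 57.1 CPM in hen 20, against 1.57 and 3.07 CPM in PL hens 8 and 9 and 3.13, 0.683, 3.20 and 1.997 CPM in NPL hens 10, 12, 13 and 42. Hen 20 was 45.8 and 17.8 times the next bird in these genes. Over all 14, the gap was 4.05-fold to 45.8-fold with a median of 5.07-fold. The other 65 genes lay between these kinds, with 1.08 to 780.0 CPM in hen 20.

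**Figure D3:**
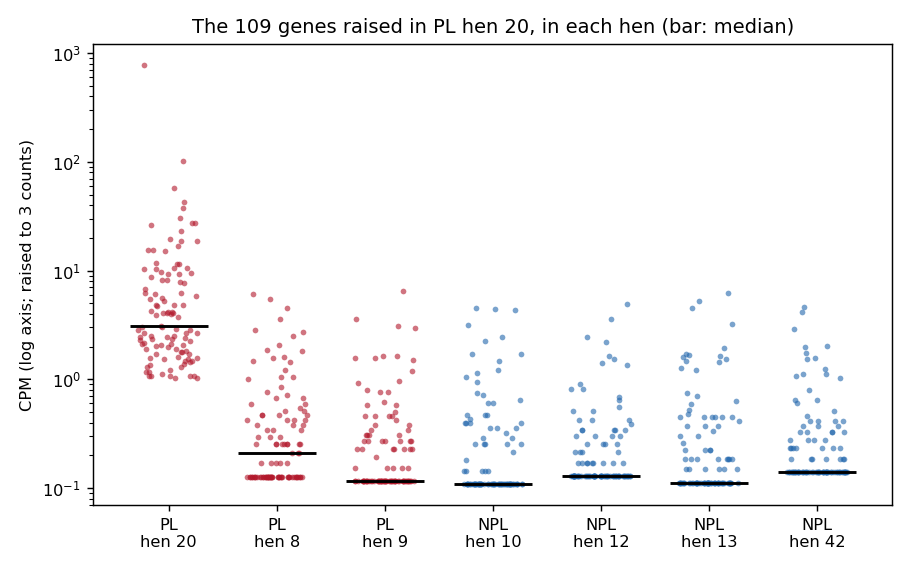
CPM (log axis) of the 109 genes raised in hen 20, in hen 20 and in each of the other 6 hens; each point is a gene, the bar is the median, values under 3 counts are drawn at that limit, and PL hens are red and NPL hens blue. The median is 3.09 CPM in hen 20 and near the limit in every other hen, a little higher in hen 8.

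Hen 8, another PL hen, was the bird most often next to hen 20. In 79 of the 109 genes the second highest hen had more than 3 counts, and this was hen 8 in 34 of them (43.0%), hen 9 in 11, hen 13 in 15, hen 10 in 9, hen 42 in 7 and hen 12 in 3. Over all 2285 genes with their highest value in hen 20, hen 8 was second in 9.93%, while hen 9 was second in 32.5% and hen 13 in 27.1%. The median level of the 109 genes was 0.212 CPM in hen 8, against 0.115 CPM in hen 9 and 0.108 to 0.139 CPM in the NPL hens. These shares describe genes picked for a wide gap, and their difference was not tested.

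In 6 genes hen 8 was second and at least 3 times above the third bird. ENSGALG00000003075 had 30.4 CPM in hen 20 and 2.71 CPM in hen 8 (64 counts), against 2 counts in PL hen 9 and 0, 1, 0 and 0 counts in NPL hens 10, 12, 13 and 42. ENSGALG00000051283 had 37.4 CPM in hen 20 and 2.84 CPM in hen 8 (67 counts), against 6 counts in PL hen 9 and 2, 4, 0 and 3 counts in NPL hens 10, 12, 13 and 42. The other members of this group were ENSGALG00000016667, ENSGALG00000016690, ENSGALG00000016491 and ENSGALG00000048258, which had 5.46, 1.48, 0.508 and 0.423 CPM in hen 8. PL hens 20 and 8 both had counts of these genes, at unequal levels. In hen 8 they were few for ENSGALG00000016491 (12 counts) and ENSGALG00000048258 (10 counts). The 6 genes were picked by the place of hen 8, so its level in them is a description. PL hen 9 had at most 0.345 CPM of any of the 6, so they did not mark PL hens as a group. Some NPL hens had counts too. ENSGALG00000016667 had 1.27 CPM in hen 13 (34 counts), and ENSGALG00000016690 had 11, 8, 5 and 7 counts in hens 10, 12, 13 and 42. In 2 other genes of hen 20, PL hen 9 was second and at least 3 times above the third bird.

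The 16 genes of hen 9 were more abundant than those of hen 20 and followed a different order among the remaining birds. Their median was 21.5 CPM in hen 9, against 3.09 CPM for the 109 genes in hen 20. The 16 summed to 891 CPM in hen 9, against 24.8 and 16.2 CPM in PL hens 8 and 20 and 34.4, 12.4, 9.83 and 127 CPM in NPL hens 10, 12, 13 and 42. The widest gap was that of ENSGALG00000024272, with 77.1 CPM in hen 9, against 2.96 and 4.66 CPM in PL hens 8 and 20 and 4.42, 2.65, 1.15 and 5.25 CPM in NPL hens 10, 12, 13 and 42. Hen 9 lay 14.7 times above hen 42 in this gene (interval 12.2 to 17.9), and the other birds stayed within 4.55-fold of each other.

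NPL hen 42 was second in 14 of these 16 genes (87.5%), and PL hen 20 in the other 2. Over all 4520 genes with their highest value in hen 9, hen 42 was second in 4.18%, hen 13 in 42.7% and hen 20 in 37.3%. In 12 of the 16, hen 42 was at least 2 times above the third bird. At the stricter cut of 3 times, used above for hen 8, this held in 9. ENSGALG00000006323, the most abundant, had 264 CPM in hen 9 and 35.4 CPM in hen 42, against 7.28 and 0.269 CPM in PL hens 8 and 20 and 8.99, 2.77 and 1.12 CPM in NPL hens 10, 12 and 13. ENSGALG00000016669 had 173 CPM in hen 9 and 25.6 CPM in hen 42, against 3.43 and 0.0448 CPM in PL hens 8 and 20 and 5.57, 1.11 and 0.670 CPM in NPL hens 10, 12 and 13. The ladder was the same in both genes, with hen 9 at the top, hen 42 next, hens 10 and 8 between, and hens 12, 13 and 20 at the bottom.

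ENSGALG00000016668 had the same first 3 birds and the same lowest pair at a lower level, with 10.2 CPM in hen 9 and 1.44 CPM in hen 42, against 4 and 0 counts in PL hens 8 and 20 and 14, 5 and 1 counts in NPL hens 10, 12 and 13. ENSGALG00000019843 had 4.34 CPM in hen 9 and 0.464 CPM in hen 42 (10 counts), against 2 and 0 counts in PL hens 8 and 20 and 2, 1 and 0 counts in NPL hens 10, 12 and 13. ENSGALG00000047285 and ENSGALG00000019696, picked here after their values were seen, had 73.6 and 55.0 CPM in hen 9 and 11.1 and 10.2 CPM in hen 42, against 2 counts each in hen 20.

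Hens 12, 13 and 20 were the 3 lowest birds in 8 of these 12 genes, and in 61 of the 4520 genes highest in hen 9 (1.35%). Hen 20 had at most 3 counts in 7 of the 12. The gap between hens 9 and 42 was 4.21-fold to 9.34-fold in the 12 genes. The order at the lower end was not shared by all 12: in ENSGALG00000016761 the third highest bird was hen 20, with 2.47 CPM, against 1.52 CPM in PL hen 8 and 1.73, 1.37 and 1.30 CPM in NPL hens 10, 12 and 13. In ENSGALG00000042193 hen 20 was likewise next after hens 9 and 42, with 0.224 CPM. The 12 genes were picked by their upper pair, PL hen 9 and then NPL hen 42, after the order was seen, so these counts are a description.

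**Figure D4:**
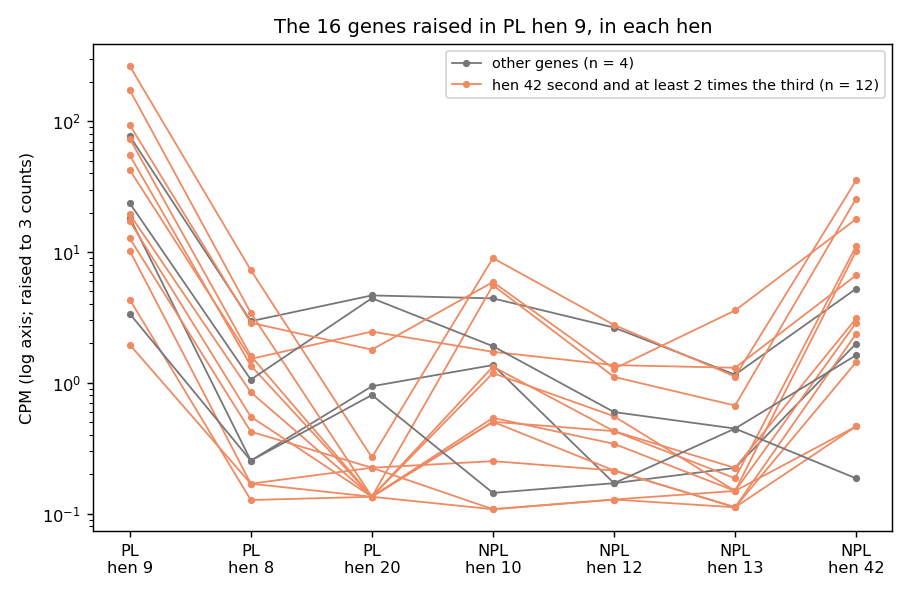
CPM (log axis) of the 16 genes raised in hen 9, one line per gene, in hen 9, the other PL hens and the NPL hens; values under 3 counts are drawn at that limit. In the 12 orange lines hen 42 is second and at least 2 times above the third bird, and most of these lines reach the limit in hen 20; the 4 grey lines do not follow this course.

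In the remaining 4 genes of hen 9, hen 42 was not 2 times above the third bird. ENSGALG00000004804 had 18.4 CPM in hen 9, against 0.254 and 0.941 CPM in PL hens 8 and 20 and 1.37, 0.171, 0.223 and 1.997 CPM in NPL hens 10, 12, 13 and 42. ENSGALG00000019553 had 23.6 CPM in hen 9 and its second highest value, 4.44 CPM, in hen 20. ENSGALG00000054801 had 3.38 CPM in hen 9 and also had hen 20 as the second bird, at 0.807 CPM. The fourth, ENSGALG00000024272, is described above.

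PL hen 8 had a single such gene. ENSGALG00000054582 had 4.10 CPM in hen 8 (97 counts), against 0.153 and 0.134 CPM in PL hens 9 and 20 and 0.0719, 0.171, 0.0745 and 0.232 CPM in NPL hens 10, 12, 13 and 42. The ratio to hen 42 was 17.7 with an interval of 7.32 to 55.7. No other gene at 1 CPM or more had a gap over 4-fold in this bird. With library sizes scaled by TMM or DESeq2 size factors, 3 genes met the rule in hen 8.

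Of the 9 genes high in an NPL hen, 4 were high in hen 12. ENSGALG00000027786 had 53.6 CPM in hen 12, against 8.89, 2.65 and 7.89 CPM in PL hens 8, 9 and 20 and 6.22, 5.66 and 8.68 CPM in NPL hens 10, 13 and 42. ENSGALG00000019552 had 53.2 CPM in hen 12, against 7.24, 4.64 and 6.99 CPM in PL hens 8, 9 and 20 and 4.46, 2.68 and 13.0 CPM in NPL hens 10, 13 and 42. ENSGALG00000006106 had 22.8 CPM in hen 12, against 2.58, 1.38 and 2.64 CPM in PL hens 8, 9 and 20 and 1.83, 2.20 and 3.71 CPM in NPL hens 10, 13 and 42. All 3 had counts in every bird, as did 56 of the 109 genes of hen 20, and lay 6.03, 4.08 and 6.14 times above the next hen. The fourth, ENSGALG00000051349, had 47 counts (2.01 CPM) in hen 12, against 5, 1 and 3 counts in PL hens 8, 9 and 20 and 7, 1 and 5 counts in NPL hens 10, 13 and 42.

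In hen 10, ENSGALG00000050627 had 60 counts (2.16 CPM), against 0, 0 and 2 counts in PL hens 8, 9 and 20 and 0, 1 and 0 counts in NPL hens 12, 13 and 42. Its ratio to hen 20 was 24.1, with a wide interval of 6.38 to 203. ENSGALG00000048666 had 10.1 CPM in hen 10, against 1.27, 0.882 and 0.493 CPM in PL hens 8, 9 and 20 and 1.92, 0.633 and 1.07 CPM in NPL hens 12, 13 and 42. The first gene was almost silent elsewhere and the second was present in every bird.

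In hen 42, ENSGALG00000048531 had 24.2 CPM, against 2.67, 2.42 and 2.64 CPM in PL hens 8, 9 and 20 and 1.65, 5.12 and 1.68 CPM in NPL hens 10, 12 and 13. ENSGALG00000054121 had 5.48 CPM in hen 42, against 1.27, 0.921 and 0.538 CPM in PL hens 8, 9 and 20 and 0.863, 0.427 and 0.931 CPM in NPL hens 10, 12 and 13. In hen 13 the only gene, ENSGALG00000052113, had 67 counts (2.50 CPM), against 8, 2 and 6 counts in PL hens 8, 9 and 20 and 15, 1 and 2 counts in NPL hens 10, 12 and 42. Its ratio to hen 10 was 4.62 with an interval of 2.61 to 8.72, so counting error alone allows a gap under 4-fold. The same holds for other genes of NPL hens. The lower end of the interval was at least 4 in 1 of the 2 genes of hen 10, 2 of the 4 of hen 12 and 0 of the 2 of hen 42.

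**Figure D5:**
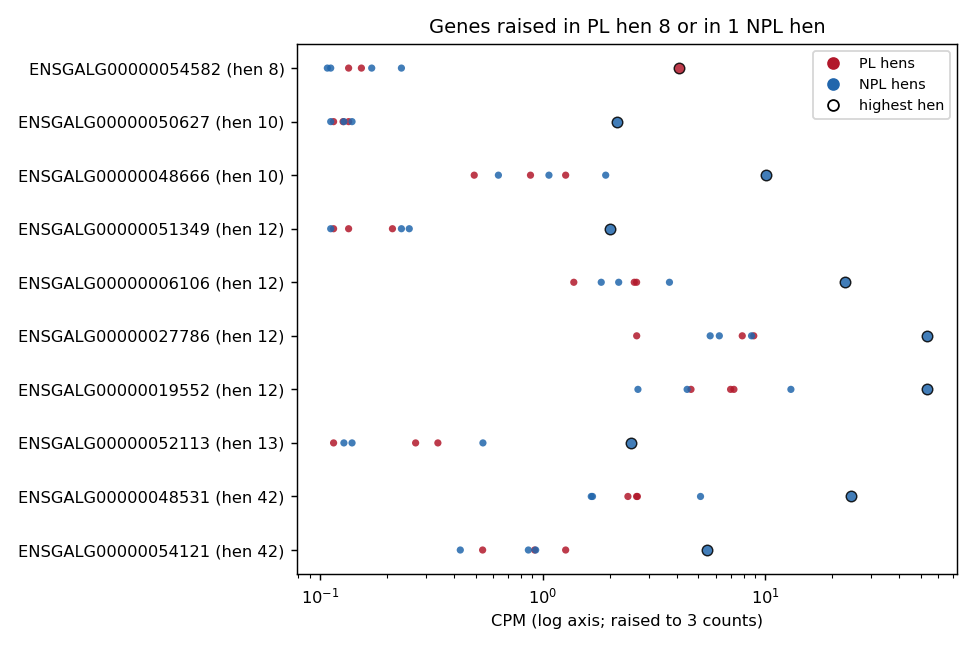
CPM (horizontal, log axis) in all 7 hens for the 10 genes raised in PL hen 8 or in 1 NPL hen; PL hens are red, NPL hens blue, the highest hen is circled, and values under 3 counts are drawn at that limit. In every row the circled point lies apart, and the distance is widest for ENSGALG00000054582 and ENSGALG00000050627.

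Depth limits how firmly a gap near the threshold can be stated. The lower end of the 95% exact binomial interval of the ratio to the second highest hen was at least 4 in 84 of the 135 genes and under 4 in 51, with a minimum of 1.61. Of the 38 genes with fewer than 50 counts in their highest hen, 23 had a lower end under 4. The 3 genes just inside the threshold were ENSGALG00000026808 (ratio 4.02), ENSGALG00000004365 (ratio 4.04) and ENSGALG00000007596 (ratio 4.05), all highest in hen 20. ENSGALG00000026808 had 25 counts in hen 20, against 4 and 3 counts in PL hens 8 and 9 and 4, 0, 5 and 6 counts in NPL hens 10, 12, 13 and 42. ENSGALG00000004365 had 46 counts in hen 20, against 8 and 7 counts in PL hens 8 and 9 and 8, 8, 8 and 11 counts in NPL hens 10, 12, 13 and 42. ENSGALG00000007596 had 26.1 CPM in hen 20, against 6.05 and 6.45 CPM in PL hens 8 and 9 and 4.35, 4.91, 6.22 and 4.64 CPM in NPL hens 10, 12, 13 and 42; its interval, 3.40 to 4.83, reaches under 4 at 582 counts, so a gap near the threshold is uncertain in abundant genes too.

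The 3 genes just outside the threshold had their highest value in 3 different birds. ENSGALG00000037628 (ratio 3.998) had 6.40 CPM in hen 10, against 0.465, 1.34 and 1.39 CPM in PL hens 8, 9 and 20 and 0.640, 1.601 and 0.789 CPM in NPL hens 12, 13 and 42. ENSGALG00000013033 (ratio 3.99) had 1.70 CPM in hen 20, against 0.254 and 0.0767 CPM in PL hens 8 and 9 and 0.0360, 0.427, 0.410 and 0.0464 CPM in NPL hens 10, 12, 13 and 42. ENSGALG00000007419 (ratio 3.98) had 8.21 CPM in hen 8, against 0.729 and 2.06 CPM in PL hens 9 and 20 and 0.863, 1.54, 1.34 and 2.04 CPM in NPL hens 10, 12, 13 and 42.

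In the comparison of PL with NPL hens, edgeR called none of these genes and DESeq2 called 3. The low-count filter of the edgeR fit kept 52 of the 135 and left out 83, since it asks for a minimum level, above a few counts, in at least 3 libraries. ENSGALG00000054582, with counts in every hen, was among those left out. Of the 52, 0 passed an adjusted p of 0.05 (edgeR quasi-likelihood test, Benjamini-Hochberg adjustment), as did 0% of the 17051 genes tested. An unadjusted p under 0.05 in the same edgeR test was given to 24 of the 52 and to 600 of the 17051. The direction and much of the size of these differences follow from how the genes were chosen. So does a wide spread within the group of the high hen, and the 0 calls are therefore a description too. ENSGALG00000016667 averaged 262 ± 449 CPM in PL (SD, n = 3) and 0.457 ± 0.546 CPM in NPL (SD, n = 4). This was a log2 difference of 9.08 with an edgeR adjusted p of 0.886. Its SE of 2.29 was worked back from the log2 difference and the statistic of the edgeR test. Without hen 20 the log2 difference was 2.70. The spread within PL exceeded the PL mean.

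DESeq2, run as an alternative, called 11 of 19348 genes (0.0569%), and 3 of these were among the 135, all high in hen 20. ENSGALG00000003075, ENSGALG00000051283 and ENSGALG00000000919 each had a DESeq2 adjusted p of 0.0492, with log2 differences of 9.79, 7.10 and 5.38 for PL over NPL. The first pair had hen 8 well above the NPL hens, as given above. ENSGALG00000000919 had 5.65 CPM in hen 20 (126 counts), against 2 and 15 counts in PL hens 8 and 9 and 1, 2, 2 and 0 counts in NPL hens 10, 12, 13 and 42. All 3 were below the edgeR filter. DESeq2 gave no p-value to 51 of the 135 genes (37.8%), against 60 of the 21946 genes with any count (0.273%). It withholds the p-value of a gene in which a single library has an extreme influence. The rule picked genes with a single high library, so the larger share among the 135 follows from how they were chosen. The 3 calls rest on the same counts that chose the genes and are likewise a description.

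Over the hens in which they were not high, the genes of hens 20 and 9 that could be fitted had 0 calls between PL and NPL, as had all genes fitted. With hen 20 left out of the edgeR fit, 34 of its 109 genes passed the filter, and 22 were higher and 12 lower in PL, with a median log2 difference of 0.11, against 0.00 over all 17369 genes. With hen 9 left out, 13 of its 16 genes passed, and 3 were higher and 10 lower in PL, with a median of -1.55, against 0.00 over all 17315 genes. Adjusted p-values of these genes (edgeR quasi-likelihood test) were at least 0.999 in both sets. With 0 calls over all genes in either fit, the 0 calls here are not particular to these genes. Unadjusted p-values under 0.05 numbered 3 without hen 20, against 329 over all 17369 genes. Without hen 9 they numbered 0, against 403 over all 17315 genes. The shares of all genes higher or lower in PL were not worked out. NPL hen 42 was second in 14 of the 16 genes of hen 9, while PL hen 20 had at most 3 counts in 7 of them and was second in 2. Whether this order accounts for the negative median was not tested.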

How the data were processed

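The deposited file is a single matrix of raw counts (whole numbers, no normalization by the authors) covering 24356 Ensembl gene IDs in 7 ovary libraries; columns were tied to hens by the column name in each sample's label. Trim Galore and galGal6 are named, per the submitters' processing notes; for aligner, counter, annotation and strand setting the sources used here give nothing, so overlapping, antisense and near-identical genes cannot be told apart. None of the 25635 genes in the reference table (GRCg7b) has an Ensembl ID, so 0 IDs matched, the 16 planned marker lists could not be tested, and no sequence is printed. The 21 library pairs differed by 17 to 163 times sampling noise (chi-square per degree of freedom), so all were kept.

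CPM used column totals. The genes and lists were chosen with earlier results of these data known. Named with all values were, per hen, the 5 widest gaps, and overall the 3 most abundant genes and the 3 just inside and just outside the threshold; other IDs named were chosen after their values were seen. PL was compared with NPL in edgeR 4.0.16 under R 4.3.3 (quasi-likelihood, filterByExpr, TMM, robust, group as the only term), tested on simulated data, with DESeq2 1.42.0 as an alternative. P-values measure the spread between hens, each with 1 library. Ratio intervals are exact binomial (Clopper-Pearson, 95%) and, like the limit of 3 counts, cover counting error only. Alternatives were other count limits, CPM minimums, folds, scalings and each hen left out.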

Additional observations from a re-analysis of the deposited data

Results flagged for a closer look

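Dixon's ratio was checked in the 4 NPL hens for 32 values, and 12 were marked because 1 hen lay far from the other 3; chance marks about 1 in 20, and the 3 PL hens are too few for this check. For the genes raised in an NPL hen the mark follows from how they were chosen. In hen 10 these were the summed level of its genes (12.2 CPM), ENSGALG00000050627 (2.16 CPM) and ENSGALG00000048666 (10.1 CPM). In hen 12 they were the summed level of its genes (132 CPM), ENSGALG00000051349 (2.01 CPM), ENSGALG00000006106 (22.8 CPM) and ENSGALG00000027786 (53.6 CPM). In hen 42 they were the summed level of its genes (29.7 CPM), ENSGALG00000048531 (24.2 CPM) and ENSGALG00000054121 (5.48 CPM).

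Both other marks concern genes raised in a PL hen. ENSGALG00000019843, raised in hen 9, had 0.464 CPM in hen 42, above the 0 to 0.0719 CPM of hens 10, 12 and 13. ENSGALG00000016667, raised in hen 20, had 1.27 CPM in hen 13, above the 0.0719 to 0.256 CPM of hens 10, 12 and 42.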

How the results depend on the processing

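The 135 genes, with 109 in hen 20 and 16 in hen 9, depended mainly on the thresholds and on hen 20. A minimum of 5 CPM left 60 genes, 41 of them in hen 20, and an 8-fold gap left 69, with 64 in hen 20 and 3 in hen 9. Restricting the rule to genes kept by the edgeR filter, an alternative chosen after seeing the data, left 52, with 32 in hen 20. Leaving out 1 hen gave 38 to 149 genes; the 38 were without hen 20, and 29 of them belonged to the 135. A limit of 1 count changed nothing, since a gene at 1 CPM passes 4-fold over either limit. Other alternatives were a limit of 10 counts, a minimum of 0.5 CPM, a 3-fold gap, and TMM or DESeq2 size factors. These moved the counts of 135, 109 and 16 by no more than 1.5 times. At 3-fold the smaller counts of the other hens moved more, to 4 in hen 8 and 4, 13, 7 and 5 in hens 10, 12, 13 and 42. With TMM or DESeq2 size factors, hen 8 held 3 genes, against 1 in the main setting. With each of these scalings 131 of the 135 genes still met the rule.

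The count of 0 genes called between PL and NPL held in each edgeR fit run, and DESeq2 called 11. The smallest adjusted p (edgeR quasi-likelihood test) was 0.886 in the main fit and 0.0808 without hen 8. It was 0.428 to 0.999 with any other hen left out. Unadjusted p-values under 0.05 numbered 3346 of 17384 genes without hen 8, against 600 of 17051 in the main fit. Of 114 values of PL over NPL log2 differences, for 13 named genes under the alternatives, 109 kept their direction. While the high hen stays in the fit, the direction follows from how the genes were chosen, so this number is no sign of stability. The differences moved towards or past 0 in each of the 13 genes without its own high hen. They became 2.70 for ENSGALG00000016667 and 0.32 for ENSGALG00000007596 without hen 20, 0.17 for ENSGALG00000024272 without hen 9, and -0.45 for ENSGALG00000048666 without hen 10. Without hen 12 they became -0.23 for ENSGALG00000006106, -0.07 for ENSGALG00000027786 and -0.11 for ENSGALG00000019552, and without hen 42, -0.14 for ENSGALG00000048531. The 5 values that turned also left out the high hen. With 1 hen left out, the lowest values, all without hen 9, and the highest were -0.67 to 3.41 for ENSGALG00000004804, -1.64 to 4.35 for ENSGALG00000006323, -2.56 to 3.22 for ENSGALG00000016668 and -2.20 to 4.54 for ENSGALG00000016669. ENSGALG00000054121 gave -1.43 to 0.31, the highest without hen 42. Missing are 3 values, for ENSGALG00000016668 without hen 10 or 42 and for ENSGALG00000016667 without hen 13, since these genes then did not pass the filter. The groups share no replicate numbers, so no pairing exists. Counting error allows a gap under 4-fold in 51 of the 135 ratios; 39 of these genes had under 100 counts in their highest hen.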
